A study of Caenorhabditis elegans with 12 samples.

Results

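The effect of the NuRD mutation lin-40(yth27) under mitochondrial stress was read from 6 of the 12 libraries of the series, the 3 of lin-40(yth27) animals on cco-1 RNAi against the 3 of N2 animals on cco-1 RNAi. N2 is the wild-type (WT) laboratory strain. The mutant carries a point mutation on chromosome V from a chemical mutagenesis screen and stands for 1 isolated allele, so that other differences between its strain and N2 cannot be told apart from the allele. Both genotypes were fed the RNAi bacteria from hatching at 20°C and were frozen as whole L4 larvae, the last larval stage, and messenger RNA was selected by its poly(A) tail. The other 6 libraries, of the same genotypes on empty vector (EV) bacteria, are given only beside these results. The labels number the replicates without naming separate cultures, so that p-values measure the spread between these samples.

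NuRD is a chromatin complex that joins a nucleosome remodeler to a histone deacetylase, and LIN-40 is its MTA-type scaffold subunit. In the worm it is known for roles in embryonic and vulval development and in the mitochondrial unfolded protein response (UPRmt). The gene cco-1, listed as cox-5B, encodes part of cytochrome c oxidase, the last complex of the respiratory chain, and its RNAi in larvae is a standard way to stress mitochondria. The comparison asks which messages differ in level between the mutant and WT animals once mitochondria are stressed.

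Upon cco-1 RNAi, 93 of 14867 genes tested (0.626%) differed between lin-40(yth27) and N2, of which 74 (0.498%) were higher and 19 (0.128%) lower in the mutant. These differentially expressed genes (DEGs) had a Benjamini-Hochberg (BH) adjusted p under 0.05 in edgeR's quasi-likelihood test. For 5 of them, the called loci of his-14 and of Y19D10A.4, the counts were identical to those of another locus, so that the DEGs hold fewer separate measurements. The higher DEGs included fat-7, a fatty acid desaturase, ins-35, an insulin-like peptide, 12 histone loci and better expressed genes such as R06C1.4, msra-1 and sams-3. The lower DEGs included F56A4.3 and Y58A7A.4, which had almost no or no counts in the mutant, and the serpins srp-2 and srp-3. Levels are given in CPM, which are read counts scaled by the library total times a factor fitted for each library (TMM). CPM therefore do not sum to the same total in each library. Upon cco-1 RNAi, all genes tested summed to 1255960 CPM in lin-40(yth27) replicate 3 (factor 0.796). They summed to 907641 CPM in N2 replicate 2 (factor 1.10). Most DEGs were rare messages. The higher ones had a median of 8.34 CPM in lin-40(yth27) and 2.81 CPM in N2. The lower ones had a median of 1.98 CPM in lin-40(yth27) and 11.2 CPM in N2.

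The 3 libraries of one genotype lay apart from all 3 of the other for each of the 93 DEGs. Over all genes tested, the groups did not overlap for 9.85% in the higher direction and 7.34% in the lower direction. The median log2 fold change was 1.44 for the higher DEGs and −1.63 for the lower ones, against −0.02 for all genes. The DEGs were chosen by a test on the same libraries, so nothing is read from this separation or from the larger fold changes. The same holds where the groups of a called gene are said below not to overlap. In all, 2314 genes (15.6%), DEGs included, had an unadjusted p under 0.05 in the edgeR test. In the plot of level and change, the DEGs of large fold change lie at the left, among rare messages.

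**Figure D1:**
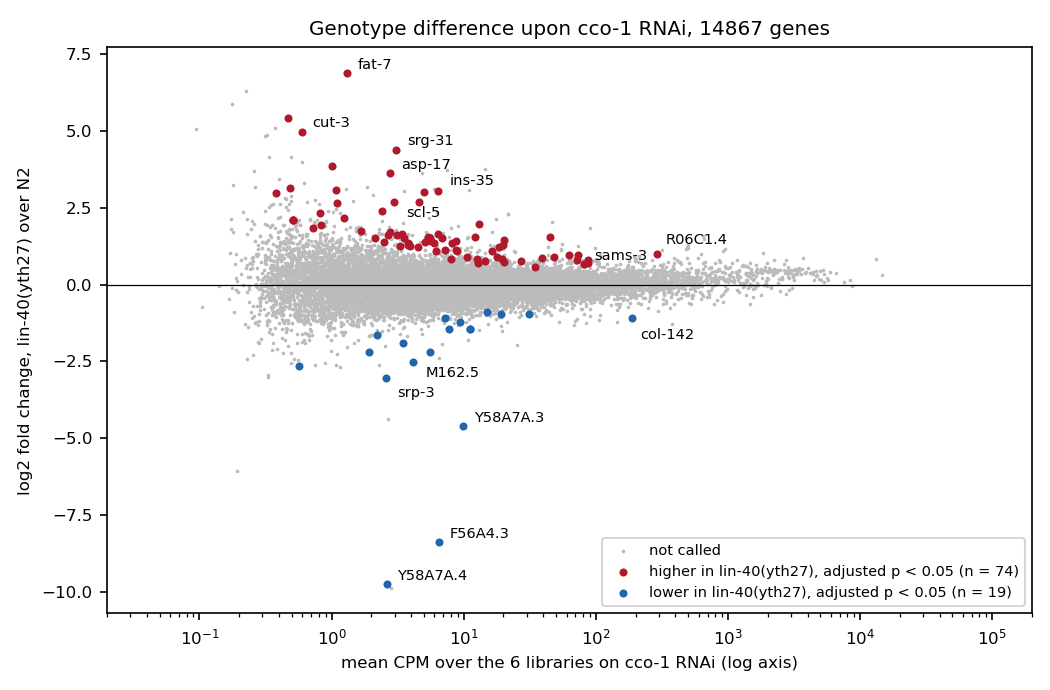
Log2 fold change of lin-40(yth27) over N2 upon cco-1 RNAi against the mean CPM of the 6 libraries (log axis), 1 point for each of the 14867 genes tested. Red points are the 74 higher and blue points the 19 lower DEGs, which reach from fat-7 at 6.89 to Y58A7A.4 at −9.75, a fitted value that rests on 0 counts in the mutant.

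The calls leaned on single libraries. The library totals were 19824675 to 22538076 counts in lin-40(yth27) and 19807858 to 20526087 counts in N2. Replicate 3 of lin-40(yth27) and replicate 1 of N2 stood apart in the way their counts followed gene length. Without that mutant library 14 genes passed, 5 higher and 9 lower, and without that N2 library 81 passed, 68 higher and 13 lower. Without replicate 1 or 2 of lin-40(yth27) 258 or 9 genes passed, without replicate 2 or 3 of N2 6 or 8, and without 1 of the EV libraries, which add to the estimate of the spread, 20 to 50. N2 replicate 1 also held few major sperm protein messages, which summed to 402 CPM there, against 1384 to 2048 CPM in lin-40(yth27) and 1979 and 3799 CPM in the other N2 libraries, and its vitellogenin messages summed to 98.2 CPM, against 620 to 2266 CPM in lin-40(yth27) and 1367 and 3530 CPM in those N2 libraries. Whether the genes below follow stage or tissue share was not tested, and in whole animals fewer cells of a kind cannot be told apart from less RNA per cell. The summed markers of intestine, muscle, hypodermis and neurons overlapped between the genotypes, and no marker was a DEG.

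The counts also moved with the test. All 93 DEGs passed in DESeq2, which called 391 genes, whereas a fit on the 6 cco-1 RNAi libraries alone called 4, all of them lower. That fit tested 90 of the 93 DEGs, since fat-7, R07C12.1 and fbxb-75 fell below its expression filter. The genes that passed in each of the 6 fits that left out 1 compared library were ins-35, Y58A7A.4, F56A4.3, srp-3 and M162.5, and every other DEG lost its call in at least 1 of them. The sign of the 93 DEGs did not change in any of the fits that tested them.

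No message of the NuRD complex passed the test. lin-40 had 99.4, 146 and 123 CPM in lin-40(yth27) and 133, 117 and 116 CPM in N2, which overlap, with a log2 fold change of 0.01 ± 0.20 (SE). A point mutation need not change the message, so this value does not check the genotype. None of the 10 subunits of NuRD and of the related MEC complex was a DEG, and their median log2 fold change was −0.09. The RNAi target cox-5B had 177, 224 and 257 CPM in lin-40(yth27) and 143, 144 and 193 CPM in N2 upon cco-1 RNAi, against 409 to 425 CPM in lin-40(yth27) and 474 to 517 CPM in N2 on EV. It was thus below its EV level in every library of both genotypes. Between the genotypes upon cco-1 RNAi its ranges overlapped, and its edgeR log2 fold change of 0.46 ± 0.16 (SE) had a BH adjusted p of 0.218.

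The largest fitted rise was in fat-7, a stearoyl-CoA desaturase that makes oleic acid. It fell below the expression filter when only the 6 compared libraries were fitted, and was tested through the EV libraries, where its level was higher. It had 0.176, 3.52 and 4.12 CPM in lin-40(yth27), against 0, 0.0446 and 0 CPM in N2. The groups did not overlap, but replicate 1 of the mutant lay far below the other 2 and N2 was near zero. The summed counts were 145 in lin-40(yth27) and 1 in N2, a ratio of 155 after scaling with a 95% exact interval of 27.3 to 6146 that covers counting error only. The edgeR test gave a log2 fold change of 6.89 ± 1.24 (SE, BH adjusted p = 0.0403), and it passed in 1 of the 6 fits that left out a compared library, with log2 fold changes of 6.41 to 8.72. Of the other 15 desaturases and elongases tested, none was a DEG. The share called higher in this list, 6.25% against 0.498% of all genes tested, thus rests on fat-7 alone. fat-5, the palmitoyl-CoA desaturase, had 2.25, 5.10 and 5.51 CPM in lin-40(yth27) and 1.14, 1.07 and 1.26 CPM in N2 (log2 fold change 1.88, BH adjusted p = 0.110 in edgeR), while fat-6, the close relative of fat-7, had 161, 164 and 196 CPM in lin-40(yth27) and 176, 137 and 205 CPM in N2. The desaturase list as a whole had a median log2 fold change of 0.05.

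The lipid-binding protein gene lbp-8 was the single DEG among 84 lipases and genes of fatty acid binding, activation and oxidation (1.19%, against 0.498% of all genes tested called higher). It had 4.63, 3.52 and 4.63 CPM in lin-40(yth27) and 1.5, 1.25 and 1.12 CPM in N2, without overlap. Its log2 fold change was 1.72 ± 0.26 (SE, edgeR BH adjusted p = 0.0227).

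Some better expressed genes were higher by smaller amounts, and are described 1 by 1, since no list joins them. msra-1, which codes for a methionine sulfoxide reductase and was the single DEG of 23 redox enzymes tested, had 86.9, 96.2 and 107 CPM in lin-40(yth27) and 52.1, 47.6 and 47.8 CPM in N2 (log2 fold change 0.98 ± 0.17 SE, edgeR BH adjusted p = 0.0366). sams-3, a gene for S-adenosylmethionine synthetase, had 101, 101 and 98.2 CPM in lin-40(yth27) and 56, 65.4 and 68.7 CPM in N2 (0.66 ± 0.11 SE, adjusted p = 0.0364). Both sets of libraries lay close together and well apart from each other. The nuclear hormone receptor gene nhr-68 had 23.8, 25.4 and 26.3 CPM in lin-40(yth27) and 15.1, 15.3 and 15.4 CPM in N2, and was the single DEG among 187 nuclear hormone receptors tested (0.72 ± 0.11 SE, edgeR BH adjusted p = 0.0214). The share called higher was 0.535% of these receptors and 4.35% of the redox enzymes, against 0.498% of all genes tested. Each share rests on 1 gene. pmp-5, a peroxisomal ABC transporter gene, had 80.7, 85.5 and 110 CPM in lin-40(yth27) and 61.4, 51.6 and 45.4 CPM in N2 (0.80 ± 0.15 SE, adjusted p = 0.0460). The most abundant DEG was R06C1.4, with 322, 365 and 478 CPM in lin-40(yth27) and 183, 197 and 210 CPM in N2 (0.98 ± 0.15 SE, adjusted p = 0.0199).

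Of higher genes for secreted or signalling proteins, picked from the DEGs and not from a list, ins-35 had the lowest adjusted p in edgeR. ins-35, an insulin-like peptide gene, had 6.70, 12.5 and 14.8 CPM in lin-40(yth27) and 1.14, 1.61 and 1.35 CPM in N2, so that the lowest mutant library lay above every N2 library. Its log2 fold change was 3.04 ± 0.34 (SE, edgeR BH adjusted p = 0.00479), and it stayed between 2.78 and 3.32 when single compared libraries were left out. ins-35 did not pass in the edgeR fit on the 6 cco-1 RNAi libraries alone (BH adjusted p = 0.0844). Nor did it pass in edgeR without both replicate 3 of lin-40(yth27) and replicate 1 of N2 (BH adjusted p = 0.0676). scl-5, which codes for a secreted SCP-like protein, had 5.69, 4.17 and 5.58 CPM in lin-40(yth27) and 0.725, 0.758 and 0.898 CPM in N2 (2.68 ± 0.31 SE, adjusted p = 0.00570). ins-35 was the only DEG among 115 neuropeptide and insulin-like genes tested (0.870%, against 0.498% of all genes tested called higher). Of these 115 genes, 104 had a positive log2 fold change and 33 had all mutant libraries above all N2 libraries, with none the other way. Among all genes tested, 48.3% were positive, 9.85% were higher without overlap and 7.34% lower without overlap. The median was 0.46, with 0.25 to 0.58 when single compared libraries were left out and 0.21 when the trend with gene length was removed. Markers of neurons were positive as well, all 10 of them, with a median of 0.31. Their summed level was 667 to 830 CPM in lin-40(yth27) and 570 to 733 CPM in N2. With the length trend removed the marker median was 0.37, unlike the fall of the list. On EV the medians were 0.15 for the markers and 0.07 for the list. The part of neuron share in the list was not tested.

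The chemoreceptor gene srg-31 had 3.79, 5.10 and 8.81 CPM in lin-40(yth27) and 0.725, 0 and 0.135 CPM in N2. The G protein alpha subunit gene gpa-6 had 2.12, 1.90 and 1.65 CPM in lin-40(yth27) and 0.311, 0.178 and 0.404 CPM in N2. Neither pair of groups overlapped, and both genes were DEGs (log2 fold changes of 4.39 ± 0.81 and 2.65 ± 0.44 SE, edgeR BH adjusted p of 0.0430 and 0.0344). The calmodulin-dependent kinase gene cmk-1, the immunoglobulin-domain gene zig-4 and syd-9, a zinc finger gene with a role at synapses, were higher as well, by 0.77, 1.21 and 0.84 on the log2 scale.

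Single proteases and lectins were called and no immune effector gene. The called share was 4.55% of the proteases and 1.72% of the lectins, against 0.626% of all genes tested, and rests on 1 and 2 genes. The aspartyl protease gene asp-17 had 1.85, 6.21 and 7.42 CPM in lin-40(yth27) and 0.518, 0.223 and 0.494 CPM in N2 (3.63 ± 0.58 SE, edgeR BH adjusted p = 0.0310), as the single DEG of 22 proteases tested. Among 116 C-type lectin genes, clec-206 and clec-80 were higher, with log2 fold changes of 2.70 and 0.90, while the median of the family was −0.04. Of 86 antimicrobial and immune effector genes none was a DEG, and 68 had a positive log2 fold change, with a median of 0.29. That median was 0.10 without replicate 3 of lin-40(yth27) and 0.07 with the trend with gene length removed.

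**Figure D2:**
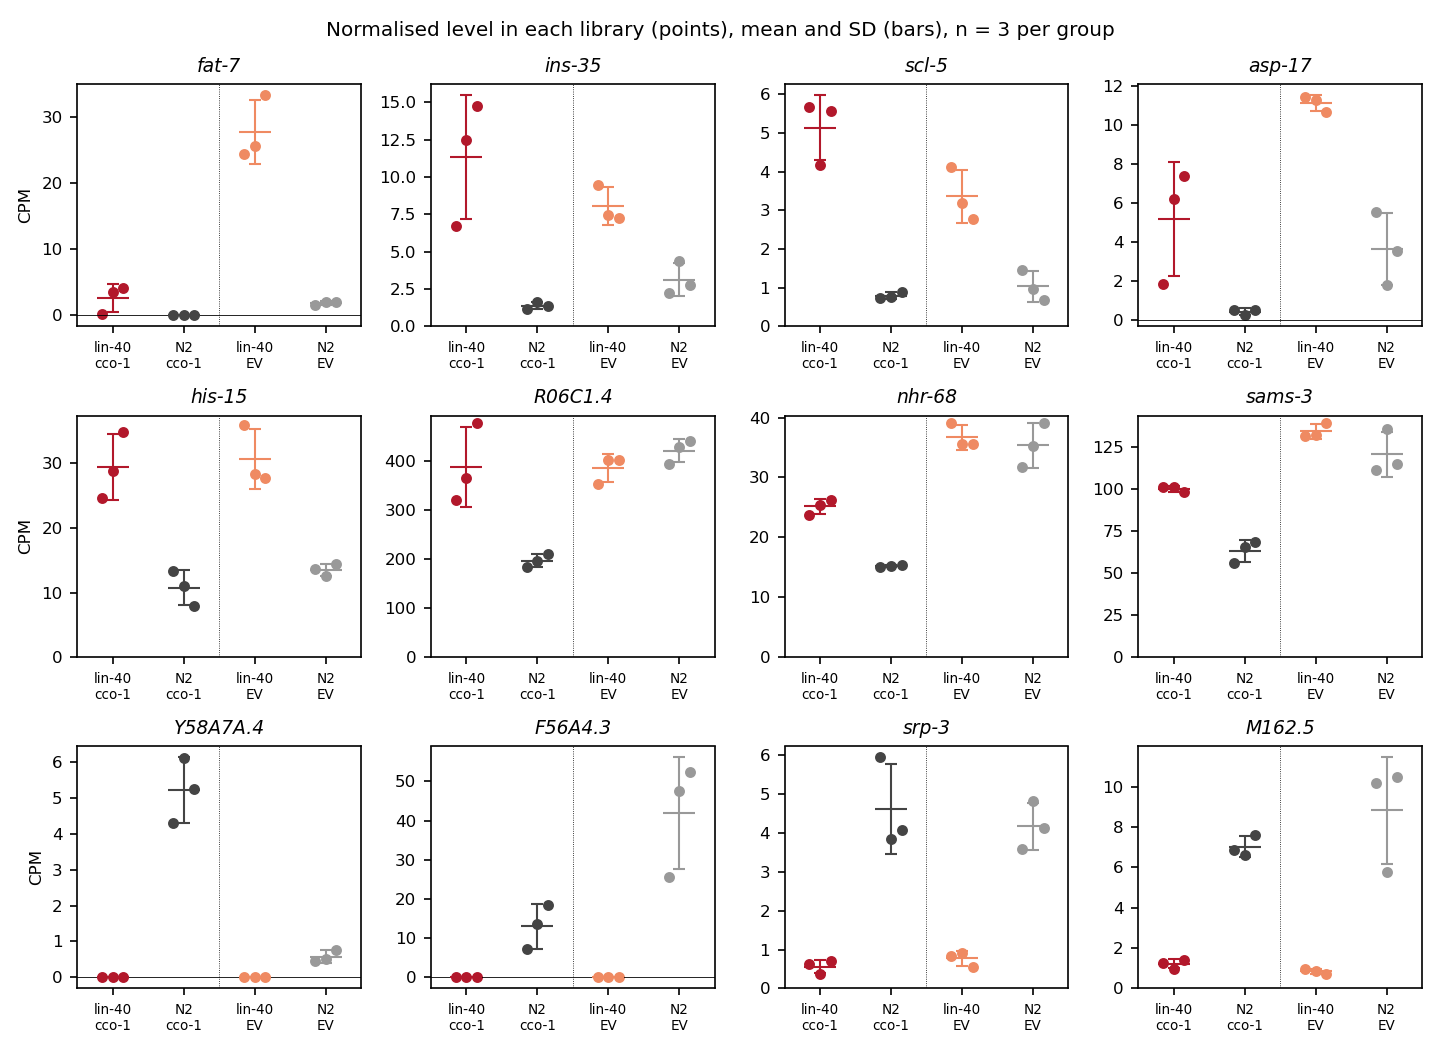
CPM of 12 genes in each library (points, n = 3 per group) with mean and SD, with lin-40(yth27) left of N2 on cco-1 RNAi and then on EV; his-15 is the locus WBGene00001885. Upon cco-1 RNAi the 3 mutant libraries lie apart from the 3 N2 libraries for every gene shown, whereas on EV R06C1.4, nhr-68 and sams-3 overlap between the genotypes.

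Histone genes were the list with the most calls. Of 72 histone loci 51 were tested, and 12 were higher in lin-40(yth27) and none lower. The share called higher was 23.5%, against 0.498% of all genes tested. The median log2 fold change of the 51 was 1.12, and 31 had all mutant libraries above all N2 libraries, with none the other way. Groups without overlap made up 9.85% (higher) and 7.34% (lower) of all genes tested. The locus his-15 (WBGene00001885), an H2B gene, had 24.6, 28.8 and 34.8 CPM in lin-40(yth27) and 13.3, 11.1 and 7.91 CPM in N2 (1.45 ± 0.20 SE, edgeR BH adjusted p = 0.0155). The H3 gene his-59 had 12.8, 16 and 24.9 CPM in lin-40(yth27) and 6.73, 6.16 and 5.48 CPM in N2 (1.56 ± 0.23 SE, adjusted p = 0.0189). The H2A gene his-7 had 9.92, 12.4 and 16 CPM in lin-40(yth27) and 5.85, 3.97 and 4.40 CPM in N2 (1.43 ± 0.25 SE, adjusted p = 0.0388). In all of these the groups did not overlap, and replicate 3 of the mutant was highest.

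The called histone loci covered the core histones. 7 lay in 1 cluster on chromosome II (13819626 to 13825843) with copies of his-9, his-12, his-14 and his-15, 3 on chromosome IV (his-31, his-32 and his-59) and 2 on chromosome V (his-7 and his-8). Several loci share a symbol in the annotation and nearly identical sequence, and the authors' counting could split their reads, so that single copies are uncertain. When loci with the same counts were taken once, 10 of 45 were higher, with a median of 0.75. The histone genes his-35, his-37, his-71, his-72 and his-74, which are not in the called set, had log2 fold changes of −0.12, −0.19, 0.30, 0.47 and 0.16. Core histone messages mostly lack a poly(A) tail, so poly(A)-selected libraries hold a small and possibly variable part of them.

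The histone result moved with gene length in the libraries. Histone genes are short, with a median of 384 bases against 1365.5 bases for all genes tested, and the 20% of genes that are shortest had a median log2 fold change of 0.17, against −0.12 in the 20% that are longest. Of the 74 higher DEGs, 30 were among the shortest and 3 among the longest. When the trend with length was removed from each library, the histone median was 0.77 and none of the 51 passed, while without replicate 3 of the mutant the median was 0.75. On EV, 3 histone loci were DEGs, 0 with a replicate block, and the median was 0.59.

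**Figure D3:**
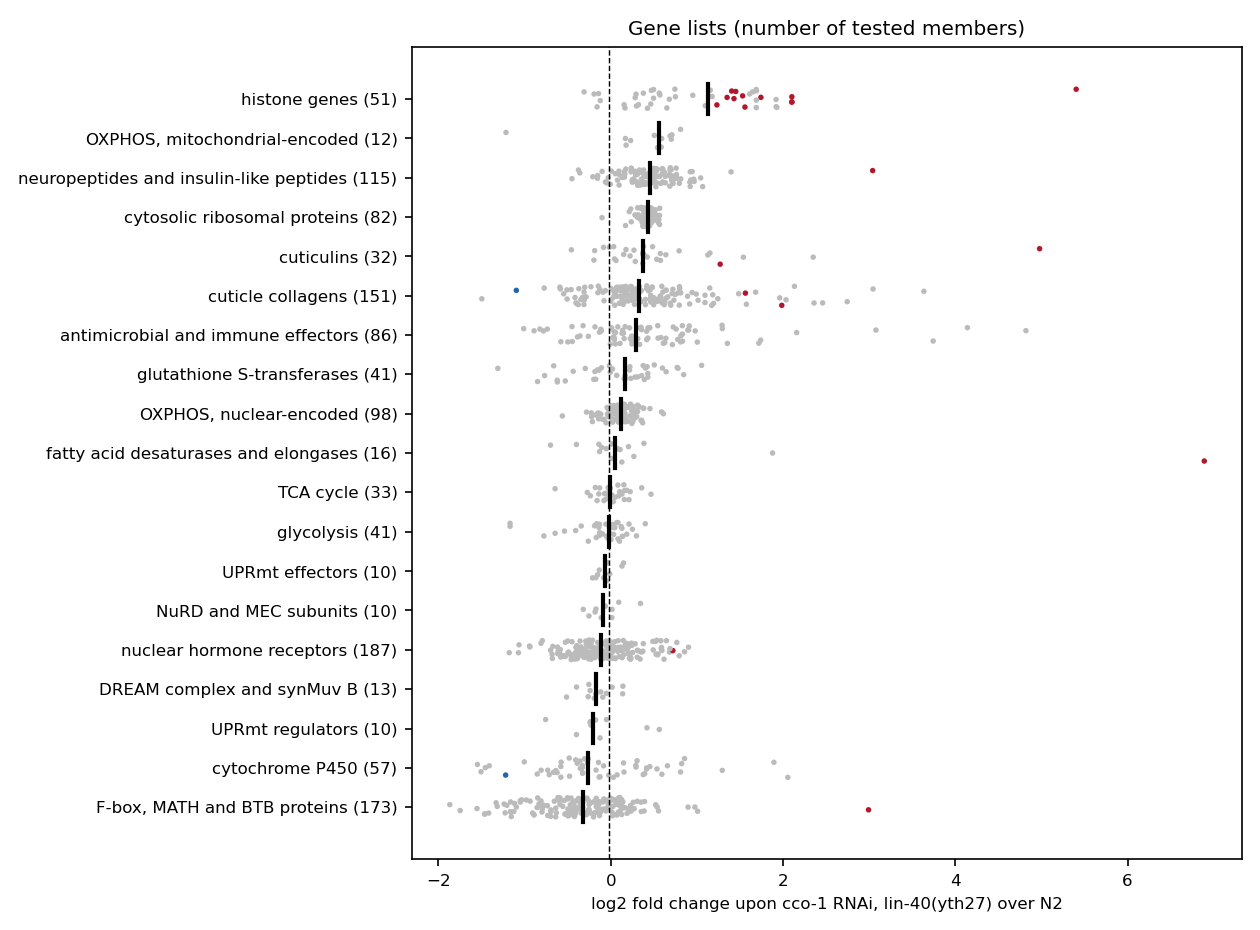
Log2 fold change of lin-40(yth27) over N2 upon cco-1 RNAi for the tested members of 19 gene lists (grey, not called; red, higher DEG; blue, lower DEG), with the median of each list as a black bar and that of all genes as a dashed line at −0.02. Histone genes have the highest median of the lists shown (1.12) and F-box, MATH and BTB genes the lowest (−0.32).

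Cuticle genes gave calls in both directions. The collagen genes col-68 and col-150 were higher and col-142 was lower, out of 151 collagen genes tested with a median log2 fold change of 0.33. The share called higher was 1.32%, against 0.498% of all genes tested, of which 0.128% were called lower. col-68 had 12, 22 and 28.3 CPM in lin-40(yth27) and 4.71, 6.38 and 4.67 CPM in N2 (1.99 ± 0.27 SE, edgeR BH adjusted p = 0.0158). col-142 had 114, 111 and 132 CPM in lin-40(yth27) and 241, 314 and 207 CPM in N2 (−1.10 ± 0.18 SE, adjusted p = 0.0310). In each of these collagens the groups did not overlap. The collagen median was 0.21 without replicate 3 of lin-40(yth27), 0.51 without replicate 1 of lin-40(yth27) and 0.56 without replicate 2 of N2. Of 32 cuticulin genes tested, cut-3 and cutl-8 were higher (6.25%, against 0.498% of all genes tested). The summed counts of cut-3 were 69 in lin-40(yth27) and 2 in N2, a ratio of 36.8 with a 95% exact interval of 9.80 to 310.

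Genes of the respiratory chain and of the UPRmt were not among the DEGs. The 98 nuclear genes of oxidative phosphorylation had a median log2 fold change of 0.12 and the 33 genes of the TCA cycle one of −0.01. The nuclear median was −0.05 without replicate 3 of lin-40(yth27), 0.22 without replicate 1 and −0.01 with the trend with gene length removed, and the TCA median was between −0.10 and 0.11 with single libraries left out. Of the 12 messages encoded in the mitochondrial genome none passed and 11 were positive, with a median of 0.56. All mutant libraries lay above all N2 libraries for 7 of them, against 9.85% of all genes tested. CYTB, for cytochrome b of complex III, had 2062, 2620 and 3815 CPM in lin-40(yth27) and 1594, 1346 and 1904 CPM in N2 (0.81 ± 0.22 SE, edgeR BH adjusted p = 0.137). The median of the 12 was 0.30 without replicate 3 of the mutant. The 82 cytosolic ribosomal protein genes also had no DEG and a median of 0.43, with 81 positive, but summed to 149118, 175070 and 260574 CPM in lin-40(yth27) and 156648, 129385 and 149649 CPM in N2. The groups overlapped through replicate 1 of the mutant, while replicates 2 and 3 lay above every N2 library. Of the 82 genes, 10 had all mutant libraries above all N2 libraries, a share near the 9.85% of all genes tested. An unadjusted p under 0.05 in the edgeR test was found for 43, against 15.6% of all genes tested. Without replicate 3 of the mutant the median was 0.12.

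The 10 UPRmt effector genes, chaperones and proteases of mitochondria, had a median log2 fold change of −0.07 with no call, which was 0.02 without replicate 1 of N2. hsp-6, the mitochondrial HSP70, had 1019, 1143 and 1166 CPM in lin-40(yth27) and 1461, 1194 and 1097 CPM in N2, and hsp-60 had 884, 989 and 1099 CPM in lin-40(yth27) and 1022, 789 and 869 CPM in N2. Both overlapped between the genotypes (log2 fold changes −0.17 ± 0.20 and 0.15 ± 0.15 SE). The 10 UPRmt regulators had a median of −0.20. atfs-1, the transcription factor that drives the response, had 82.7, 70.2 and 66 CPM in lin-40(yth27) and 104, 89.4 and 94.8 CPM in N2. These groups did not overlap, but the log2 fold change of −0.40 ± 0.12 (SE) had a BH adjusted p of 0.168 in edgeR. dve-1, the homeodomain factor of the response, had 28.3, 34.1 and 29 CPM in lin-40(yth27) and 30.1, 19.3 and 19 CPM in N2, which overlap.

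Other higher DEGs had roles that belong to none of these groups, or roles that are not annotated in the files. ppt-1, a gene for the lysosomal enzyme palmitoyl-protein thioesterase, had 5.73, 5.70 and 4.25 CPM in lin-40(yth27) and 2.12, 1.56 and 1.75 CPM in N2. The groups did not overlap, and its log2 fold change was 1.53 ± 0.26 (SE, edgeR BH adjusted p = 0.0344), with 1.53 on EV as well. fkb-4, for a peptidyl-prolyl isomerase of the FK506-binding family, had 19.7, 29 and 25.3 CPM in lin-40(yth27) and 15.7, 12.5 and 13.7 CPM in N2 (0.82 ± 0.15 SE, adjusted p = 0.0403), with 0.04 on EV. oac-54, of the O-acyltransferase homologs, had a log2 fold change of 1.5.

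Among the least characterised, C17B7.3 had 0.970, 2.09 and 2.66 CPM in lin-40(yth27) and 0.0518, 0 and 0.314 CPM in N2 (3.86 ± 0.76 SE, edgeR BH adjusted p = 0.0487). sysm-1 had 4.98, 5.33 and 16 CPM in lin-40(yth27) and 1.60, 0.758 and 0.943 CPM in N2 (3.01 ± 0.54 SE, adjusted p = 0.0403). Replicate 3 of the mutant was highest for both genes, and the groups did not overlap. B0024.4 had 3.66, 4.17 and 4.31 CPM in lin-40(yth27) and 0.673, 0.446 and 1.17 CPM in N2 (2.40 ± 0.42 SE, adjusted p = 0.0366), with 2.29 on EV. Y54G2A.37 and R03H10.6 were higher by 3.07 and 2.15 on the log2 scale. Of the better expressed ones, F22F4.4 had 90.8, 103 and 137 CPM in lin-40(yth27) and 60.1, 64.1 and 66 CPM in N2 (0.80 ± 0.15 SE, adjusted p = 0.0450). R02F11.1 had 87.7, 120 and 115 CPM in lin-40(yth27) and 71.8, 61.2 and 65.5 CPM in N2 (0.70 ± 0.14 SE, edgeR BH adjusted p = 0.0461). K07C11.7 had the smallest change of the DEGs, with 40.9, 42.3 and 40.6 CPM in lin-40(yth27) and 30.9, 25.2 and 27.4 CPM in N2 (0.57 ± 0.11 SE, adjusted p = 0.0430). In these genes every mutant library lay above every N2 library.

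Of the 35 lists, 22 had no DEG, and 65 of the 93 DEGs were in none of them. The lists with medians below that of all genes included the cytochrome P450 genes (57 tested, 1 lower, median −0.27, or −0.10 without replicate 1 of N2) and the F-box, MATH and BTB genes (173 tested, 1 higher, median −0.32). Their DEGs were cyp-32B1 with 6.08, 5.61 and 5.32 CPM in lin-40(yth27) and 16, 11.3 and 12 CPM in N2, and fbxb-75, which had under 1 CPM in every library. Of all genes tested, 0.128% were called lower and 0.498% higher.

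The lower DEGs were few but large. Y58A7A.4 had 0 counts in all 3 lin-40(yth27) libraries, against 4.3, 6.11 and 5.26 CPM in N2, or 337 counts in sum. With a floor of 3 counts over the group it was at least 105-fold lower in lin-40(yth27) (edgeR BH adjusted p = 0.00386). F56A4.3 had 0.0441, 0.0463 and 0 CPM in lin-40(yth27), against 7.09, 13.6 and 18.6 CPM in N2. Its summed counts were 2 in lin-40(yth27) and 854 in N2, which is a ratio of N2 over lin-40(yth27) of 401 after scaling with a 95% exact interval of 111 to 3313 (adjusted p = 0.00116). Y58A7A.4 and F56A4.3 were also at 0 or near 0 in all 3 mutant libraries on EV, against 0.450 to 0.772 CPM and 25.6 to 52.4 CPM in N2 on EV. Thus both genes set all 6 libraries of the mutant apart from all 6 of N2.

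The serpin gene srp-3, for a protease inhibitor, had 0.617, 0.371 and 0.697 CPM in lin-40(yth27) and 5.95, 3.84 and 4.09 CPM in N2 (−3.04 ± 0.33 SE, edgeR BH adjusted p = 0.00386). Its relative srp-2 had 1.68, 1.25 and 1.46 CPM in lin-40(yth27) and 6.06, 5.31 and 4.99 CPM in N2 (−1.89 ± 0.37 SE, adjusted p = 0.0461). Neither serpin overlapped between the genotypes. M162.5 had 1.28, 0.973 and 1.39 CPM in lin-40(yth27) and 6.88, 6.60 and 7.59 CPM in N2 (−2.53 ± 0.27 SE, adjusted p = 0.00386). The bestrophin gene best-21, of a family of chloride channels, had 2.51, 1.90 and 1.52 CPM in lin-40(yth27) and 6.78, 11.7 and 9.12 CPM in N2 (−2.21 ± 0.26 SE, adjusted p = 0.00641). The other lower DEGs were Y58A7A.3, poml-4, C52E2.4, ZK250.13, R10E8.6, cyp-32B1, col-142, ddo-1, a gene for D-aspartate oxidase, grsp-2, and 2 loci each of Y19D10A.4 and C13B7.6, with log2 fold changes from −4.60 for Y58A7A.3 to −0.88 for grsp-2. Y58A7A.3 had 1.23, 0.278 and 0.824 CPM in lin-40(yth27) and 19.5, 16.7 and 21.1 CPM in N2 (edgeR BH adjusted p = 0.0344). It also passed in the edgeR fit on the 6 cco-1 RNAi libraries (BH adjusted p = 0.0470). Y58A7A.3 and Y58A7A.4 lie together on chromosome V (5077854 to 5085007), 1.37 Mb from lin-40.

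Most of the lower DEGs lay on 1 chromosome. Chromosome V, which carries lin-40 (3704988 to 3712796 in the WBcel235 assembly), held 14 of the 19 (73.7%), against 19.9% of the genes tested, and 26 of the 74 higher DEGs (35.1%). Within 3 Mb of lin-40 lay 10 of the lower DEGs (52.6%) and 7 of the higher DEGs (9.46%), against 5.17% of the genes tested. All 10 were between 1 and 3 Mb away, where 15 of 547 genes were DEGs (2.74%, against 0.626% of all genes). The other chromosomes held 19 higher and 3 lower DEGs on II, 13 higher and 2 lower on IV, and only higher DEGs on X (8), I (6) and III (1). Strain differences linked to lin-40 cannot be told apart from the mutation here.

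5 of the 10 lay in one stretch of chromosome V, from 2348215 to 2560739, chosen after its values had been seen. In the annotation this stretch holds 21 pairs of loci with the same symbol at a distance of 108.0 to 108.3 kb from each other, such as both loci of Y19D10A.4, of C13B7.6, of C01B4.6 and of the monocarboxylate transporter gene mct-2. All 19 tested loci of the stretch had a negative log2 fold change upon cco-1 RNAi, and all 19 also on EV. Of all genes tested, 48.3% had a positive log2 fold change upon cco-1 RNAi. The median of the 19 was −1.2 upon cco-1 RNAi and −1.26 on EV, and 15 of the 19 lay between −2 and −0.5 on each kind of bacteria. Flanks of the same width had medians of −0.36 (33 genes, left) and 0.02 (24 genes, right) upon cco-1 RNAi, and of −0.10 (left) and −0.30 (right) on EV. In the left flank 24 genes were negative upon cco-1 RNAi and 18 on EV, and values reached up to 3.16 upon cco-1 RNAi. In the right flank 10 genes were negative upon cco-1 RNAi and 20 on EV. On EV 14 of the 19 loci of the stretch were lower without overlap, as were 7 of 33 genes in the left flank and 9 of 24 in the right. Among all genes tested this share was 13.1% on EV. Genes lower on EV were thus not limited to the stretch.

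Within the stretch, C13B7.6 (WBGene00044131) had 18.2, 20.4 and 24.1 CPM in lin-40(yth27) and 37.3, 40.1 and 45.6 CPM in N2 (−0.97 ± 0.14 SE). mct-2 (WBGene00015273) had 36.8, 45.0 and 45.4 CPM in lin-40(yth27) and 52.9, 127 and 107 CPM in N2 (−1.17 ± 0.25 SE, edgeR BH adjusted p = 0.0629). Both had groups that did not overlap, and mct-2 did not pass. F56A4.3, nearly lost in the mutant, was the only tested gene of the stretch without a paired locus. The 2 loci of Y19D10A.4 had identical counts, as had those of C01B4.6 and of C01B4.8, so that each of these pairs is 1 measurement. The number of gene copies in the strains was not measured here.

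**Figure D4:**
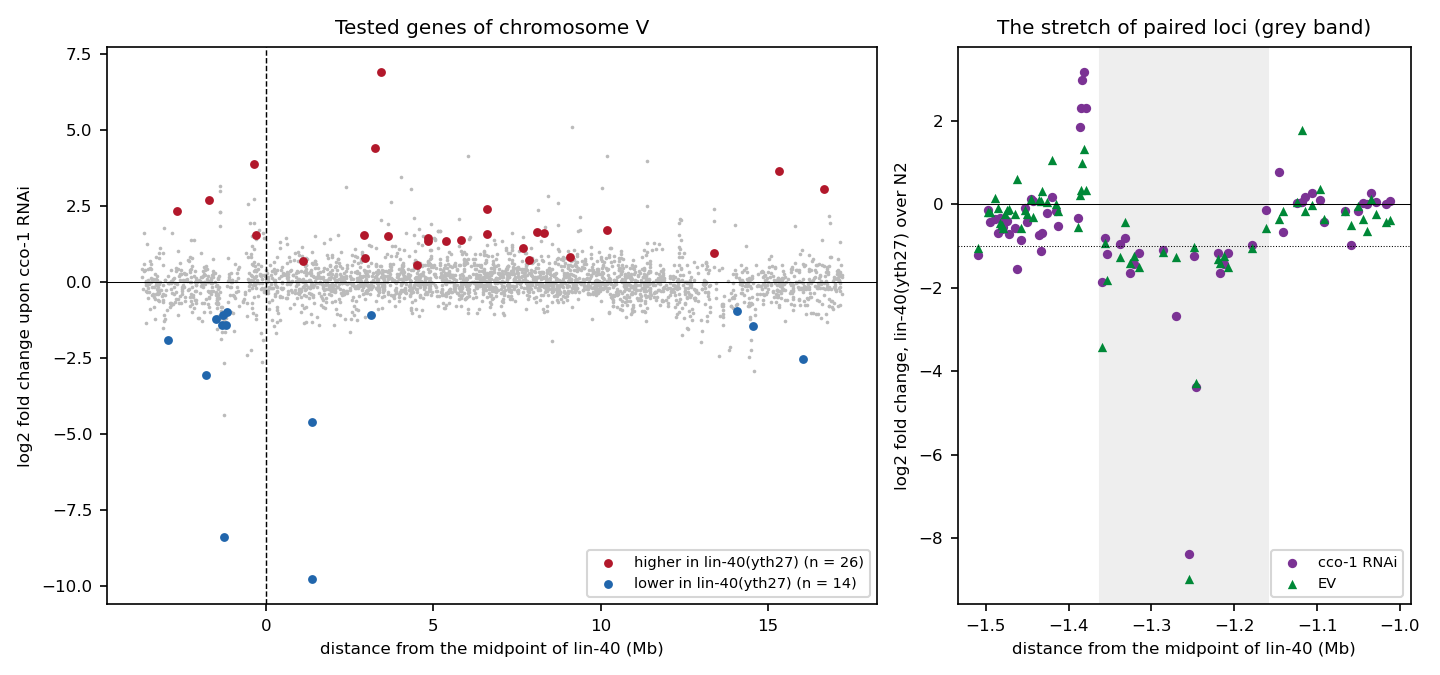
Left, log2 fold change of lin-40(yth27) over N2 upon cco-1 RNAi for the tested genes of chromosome V by distance from the midpoint of lin-40 (dashed line), with 26 higher (red) and 14 lower (blue) DEGs. Right, the stretch of paired loci (grey band) and its surroundings on cco-1 RNAi (circles) and on EV (triangles), where all 19 genes in the band lie below 0 and the dotted line marks a log2 fold change of −1.

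Most of the DEGs kept their direction on EV, which did not hold for genes at large. Of the 93 DEGs, 89 (95.7%) had the same sign on EV, 70 of the 74 higher and 19 of the 19 lower, against 50.5% of all genes, and the 2 comparisons share no library. 21 were DEGs on both kinds of bacteria, 12 higher and 9 lower, which is 22.6% of the DEGs upon cco-1 RNAi and 37.5% of the 56 DEGs on EV (0.377% of genes). The EV libraries that share a replicate number in their titles deviated together. The column names do not number all of these pairs alike, so that it is not known whether they are matched batches. With a replicate block by title number, 9 of the 56 passed on EV. Among these were 4 of the 21, namely fat-7, F56A4.3, M162.5 and C13B7.6 (WBGene00044131). On EV the median log2 fold change was 0.80 for the 74 higher DEGs and −1.24 for the 19 lower. Some lists with a positive median upon cco-1 RNAi had a negative one on EV. It was −0.13 for cytosolic ribosomal protein genes. For genes of oxidative phosphorylation it was −0.33 (mitochondrial genome) and −0.29 (nuclear). Collagens, at 0.34, and neuropeptide and insulin-like genes, at 0.07, stayed positive on EV. fat-7 had 24.3, 25.6 and 33.2 CPM in lin-40(yth27) on EV and 1.52, 2.04 and 1.96 CPM in N2 on EV, so that the mutant was above N2 on both kinds of bacteria, at levels that were lower upon cco-1 RNAi in every library.

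A subset had no like difference on EV. R06C1.4 had 352, 403 and 402 CPM in lin-40(yth27) on EV and 394, 428 and 441 CPM in N2 on EV (log2 fold change −0.13). On EV, nhr-68 had 39.1, 35.5 and 35.5 CPM in lin-40(yth27) and 31.7, 35.3 and 39.1 CPM in N2 (0.05), and T05E12.6 had 152, 152 and 151 CPM in lin-40(yth27) and 138, 159 and 155 CPM in N2 (0.01). These overlap between the genotypes on EV, whereas upon cco-1 RNAi the N2 libraries were lower than the mutant ones. The difference of the genotype change between cco-1 RNAi and EV was 1.11 ± 0.21 (SE) for R06C1.4, 0.67 for nhr-68, 1.15 for msra-1 and 1.11 for pmp-5. In edgeR's test of this interaction the unadjusted p was 0.000183 for R06C1.4, 0.000981 for nhr-68, 0.000434 for msra-1 and 0.000275 for pmp-5.

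None of these interactions passed the BH adjustment over all genes, where the lowest adjusted p in edgeR was 0.388 and 1688 genes (11.4%) had an unadjusted p under 0.05. Of the 93 DEGs 33 (35.5%) had one, but they were chosen for their difference upon cco-1 RNAi, which is part of the same contrast, so nothing is read from this share. DESeq2 gave 55 interactions under the same threshold. In edgeR, no gene can therefore be said to differ in its genotype change between the kinds of bacteria.

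**Figure D5:**
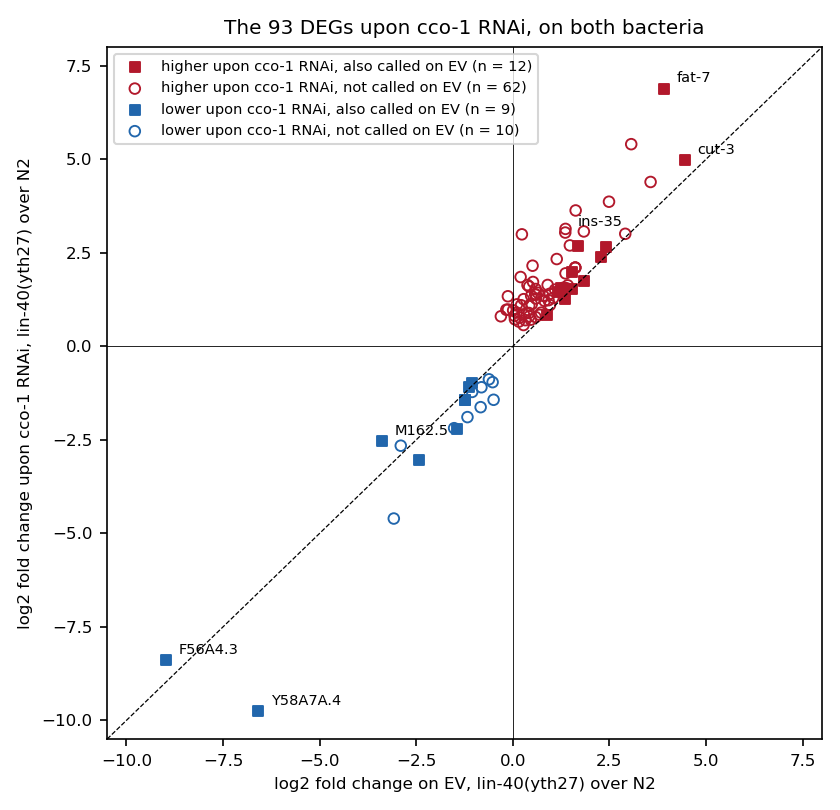
Log2 fold change of lin-40(yth27) over N2 upon cco-1 RNAi against that on EV for the 93 DEGs upon cco-1 RNAi (filled squares, DEG also on EV in the same direction in the fit without a replicate block, 12 higher and 9 lower; open circles, not). Most points share the sign on both axes (89 of 93), and the dashed line marks equal changes.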

How the data were processed

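RNA of whole L4 larvae was sequenced after poly(A) selection in 12 libraries, 3 for each of 4 groups, and the 6 on cco-1 RNAi are compared here. The authors deposited 1 table of expected counts per gene, not normalized. The submitters' processing notes name TopHat and RSEM, and the study's methods give TopHat version 2.0.0, run with read orientation and with unique matches only. The genome build, annotation and RSEM version: not given in the sources used here. That the unit is expected counts was read from the values. No column of other samples was present.

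Counts were rounded and tested with edgeR 4.0.16 in R 4.3.3: default filtering by expression (14867 of 46920 loci tested), TMM scaling, a quasi-likelihood fit over all 12 libraries and groups, the contrast of lin-40(yth27) minus N2 on cco-1 RNAi, the same on EV, and their difference, with BH adjustment over all genes tested and a threshold of 0.05. Fold changes are on the log2 scale with SE from the F statistic. CPM were computed with TMM scaling. Symbols were found for 14344 of the genes tested, and positions come from the Ensembl release 115 annotation by gene ID. Library totals of 19807858 to 22538076 counts limit the precision for rare messages, and exact intervals and the floor of 3 counts cover counting error only.

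Named genes were the NuRD and MEC subunits and cox-5B, the 15 DEGs per direction with the largest change at a mean of at least 1 CPM, DEGs that passed without each compared library, DEGs in the gene lists, and up to 3 members of each list with the lowest p. Further genes were named after their values were seen. Members, lists and rule were chosen with earlier results of these data known. Alternatives were other scaling (RLE, upper quartile, library totals) and filters, DESeq2 1.42.0, a fit on 6 libraries and a replicate block. Others were removal of the length trend, a threshold of 0.01 and leaving out each library. The length trend was fitted in R by a spline with 4 degrees of freedom and entered edgeR as an offset. Same-numbered libraries deviated together on EV (every correlation over 0.1) but not upon cco-1 RNAi, so blocked values stand beside the EV calls. Blocked counts upon cco-1 RNAi are given at the end, since matched batches there are not known. Numbers are those of the titles, and the column names number the EV libraries otherwise. The fit was also run on simulated counts without the length trends of the libraries, so that run did not test their effect on the calls. Figures were drawn with matplotlib 3.10.9 in Python 3.11.15.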

Additional observations from a re-analysis of the deposited data

Results flagged for a closer look

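For 10 of the 152 named genes tested (6.58%) the 3 lin-40(yth27) libraries lay on one side of the 3 N2 libraries upon cco-1 RNAi and on the other side on EV, without overlap on either kind of bacteria. Of all 14867 genes tested, 210 (1.41%) had this pattern. The named genes were not drawn at random, and the interaction p of a gene picked for opposite sides is a description. pmp-5, the peroxisomal transporter gene, was the only DEG of them. Its log2 fold change was 0.80 upon cco-1 RNAi and −0.31 on EV, a difference of 1.11 (unadjusted p = 0.000275 in edgeR's interaction test). The nuclear hormone receptor gene nhr-114 had 0.49 upon cco-1 RNAi and −0.38 on EV, a difference of 0.87, with an unadjusted p of 0.000377 in that edgeR test. The cytochrome P450 gene cyp-33C5 had −1.55 upon cco-1 RNAi and 0.60 on EV, a difference of −2.15, with one of 0.000556. The difference was 1.45 for nspc-2, 1.08 for CYTB and 0.91 for ATP6, both of the mitochondrial genome, 0.74 for rpl-28 and 0.68 for rps-5, of the ribosome, 0.51 for the proteasome gene pbs-1 and −0.36 for lin-36, of the synMuv B class. The unadjusted p of these was 0.00275 to 0.0336, and over all genes the BH adjusted p of the 10 was 0.388 to 0.425 in edgeR, so that none passed.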

How the results depend on the processing

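The number of DEGs upon cco-1 RNAi depended on the processing. It was 39 (22 higher) with scaling by library totals, which moved the median of all genes to −0.16, 26 (20 higher, 6 lower) with a filter of 10 CPM in 3 libraries, 4 (0 higher, 4 lower) in a fit on the 6 libraries, 22 (11 higher, 11 lower) with the length trend removed, 391 (270 higher, 121 lower) in DESeq2 and 7 (2 higher, 5 lower) at a threshold of 0.01. With single libraries left out it was 6 to 258, with 1 to 192 higher and 5 to 66 lower. Without both replicate 3 of lin-40(yth27) and replicate 1 of N2, an alternative chosen after seeing the data, 7 passed, 0 higher and 7 lower. Scaling by RLE or upper quartile and testing every gene with a count gave 70, 105 and 75. On EV the 56 DEGs became 20 with the 10 CPM filter, 451 in DESeq2, 8 at the 0.01 threshold and 6 to 92 with single libraries left out. The interaction gave 0 genes in edgeR and 55 in DESeq2.

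Upon cco-1 RNAi the correlation of deviations between same-numbered libraries was −0.376, −0.216 and −0.168, and 0 of the 3 mutant libraries correlated best with their own number. Replicate 3 of lin-40(yth27) and replicate 1 of N2 had length trends of their own, and the column names number these libraries alike. The correlations therefore cannot show whether the libraries upon cco-1 RNAi are matched batches. On EV the correlation was 0.467, 0.278 and 0.169. With a replicate block, 2 genes passed upon cco-1 RNAi (1 higher, 1 lower), 0 (0 higher, 0 lower) in the block fit on 6 libraries and 2 (1 higher, 1 lower) with block and length removal. On EV the block gave 9 and block with length removal 6.

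No called value changed sign. Of the gene values under the alternatives, 2729 kept their side of the threshold, 815 lost it, 42 gained it and 13, none of them called, changed sign by more than their SE, and of the list medians 804 moved by less than the spread and 36 by more. Few DEGs are stable at 3 libraries a group, most are rare messages, and depth does not resolve genes near zero counts.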
